A study of Mus musculus with 30 samples.

Results

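The 8 genes Chrna3, Chrna4, Chrna5, Chrna6, Chrna7, Chrnb2, Chrnb3 and Chrnb4 encode subunits of neuronal nicotinic acetylcholine receptors, and they were taken by symbol from the 38720 gene symbols listed in both deposited tables. All 8 were found. They were measured as poly(A) RNA in retinas of mouse pups at postnatal day 0, after papain digestion and separation with magnetic beads against CD90, the product of Thy1, into retinal ganglion cells (RGCs), whose axons form the optic nerve, and the remaining cells, called non-RGC. The tables cover 9 libraries, with 3 each from the RGCs of WT mice (C57BL/6), the RGCs of mutants and the non-RGC cells of mutants. The tables write only "mut". The labels hold 2 mutant genotypes, Math5Cre with Ezh2f/f and Math5Cre with Ezh2f/f and G9af/+ (G9a+/- in the design text), and which of them the mutant libraries carry was not settled. Both share the Cre driven by Math5 (Atoh7), a gene of the ganglion cell lineage, and the floxed alleles of Ezh2, which encodes a histone H3 lysine 27 methyltransferase. The cells that the beads left behind are described in the labels as pooled. Non-RGC cells of WT pups were not analysed here.

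Nicotinic receptors are cation channels opened by acetylcholine and built from 5 subunits around a pore. Receptors in neurons combine alpha subunits, which carry the main face of the acetylcholine site, with beta subunits, whereas Chrna7 can form receptors by itself. Chrna5 and Chrnb3 encode accessory subunits that join receptors already holding a complete binding site. Retinal ganglion cells are known for a rich set of these receptors, in particular those with the Chrna6 and Chrnb3 products, and around birth they receive acetylcholine from starburst amacrine cells, which drives waves of activity through receptors that need Chrnb2.

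The libraries held between 10551825 and 12259494 assigned reads. The labels number the samples of each fraction 1 to 3, but the tables do not carry those numbers, so any pairing of the 2 fractions was not recovered and the fits leave it out. Numbers 1 to 3 here only order the libraries of a group from the largest size factor down. Nothing in the labels says whether they came from separate animals, so the p-values describe library spread alone, which may be technical. Values by library are read counts normalised to 1 scale over the 9 libraries. Fold changes and fractions of a level are ratios of the group means of these values. Log2 differences of single genes and their tests come from limma fits of the 6 libraries of each comparison on log2(normalised count + 1). The 2 measures of a change therefore need not match exactly. Exon lengths were not used, so levels of different genes are not compared. Ezh2 itself had 1154, 1169 and 1576 normalised counts in WT libraries 1 to 3 and 1962, 1863 and 1812 in mutant RGC libraries 1 to 3, higher in the libraries labelled mutant (log2 difference 0.58, SE 0.13, limma adjusted p = 0.0292). Ehmt2, the G9a gene, was lower there (log2 -0.43, SE 0.11, limma adjusted p = 0.0332). Reads were counted over whole genes, and which exons are floxed was not known here, so these values do not check the deletions. Between genotypes, only 9, 8, 3 and 9 of all genes tested were called without WT library 1, WT library 2, mutant RGC library 2 and mutant RGC library 3, so calls between genotypes rest on each of these. Mutant in what follows means the libraries so labelled.

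In mutant RGCs compared with WT RGCs, Chrnb4 rose 1.79-fold while Chrna6 fell to 0.391 of its WT level and Chrna3 to 0.791. Chrnb3, Chrnb2, Chrna4 and Chrna7 had lower means that did not pass the test, and the mean of Chrna5 was 1.03 times that of WT. In all, 1 of the 8 genes was called higher and 2 lower at a limma adjusted p under 0.05. Among the 15276 genes tested, 26.0% were called, 13.7% higher and 12.3% lower. The authors' deposited table called 4 of the 8 (Chrna6, Chrnb2, Chrnb3 and Chrnb4), against 11.9% of the genes with a p-value there. The median log2 difference was -0.45 over the 8 genes and 0.0043 over all genes tested. WT and mutant RGC libraries did not overlap for 5 of the 8 (Chrna3, Chrna6, Chrnb2, Chrnb3 and Chrnb4), and for 51.1% of all genes tested. Of the 8, 4 did not overlap and were lower in the mutant, against 24.9% of all genes tested. Of the 8, 1 did not overlap and was higher, against 26.2% of all genes tested. In the same comparison limma called 10 of 20 ganglion cell markers lower and 10 of 12 markers of progenitors and dividing cells higher, and their part in these differences was not tested. In bulk libraries, fewer cells of a type and less RNA per cell cannot be told apart.

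In the mutant non-RGC cells compared with mutant RGCs, which sets the cells left behind by the beads against those they took, 5 of the 8 fell, and all 8 had lower means. Chrna6 fell to 0.0995 of its mutant RGC level and Chrnb3 to 0.118, and Chrnb2, Chrna4 and Chrna3 fell to between 0.562 and 0.614. Among 15178 genes tested, 17.1% were called, 12% lower and 5.07% higher. The authors' deposited table called the same 5 of the 8, against 6.47% of the genes with a p-value there. The median log2 difference was -0.73 over the 8 genes and 0.013 over all genes tested. Only Chrnb4 had libraries that overlapped between the fractions, while 37.7% of all genes tested did not overlap (20.6% of all lower and 17.1% higher in non-RGC cells). Both comparisons use the same 3 mutant RGC libraries, so their values are set side by side and not treated as independent.

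**Figure D1:**
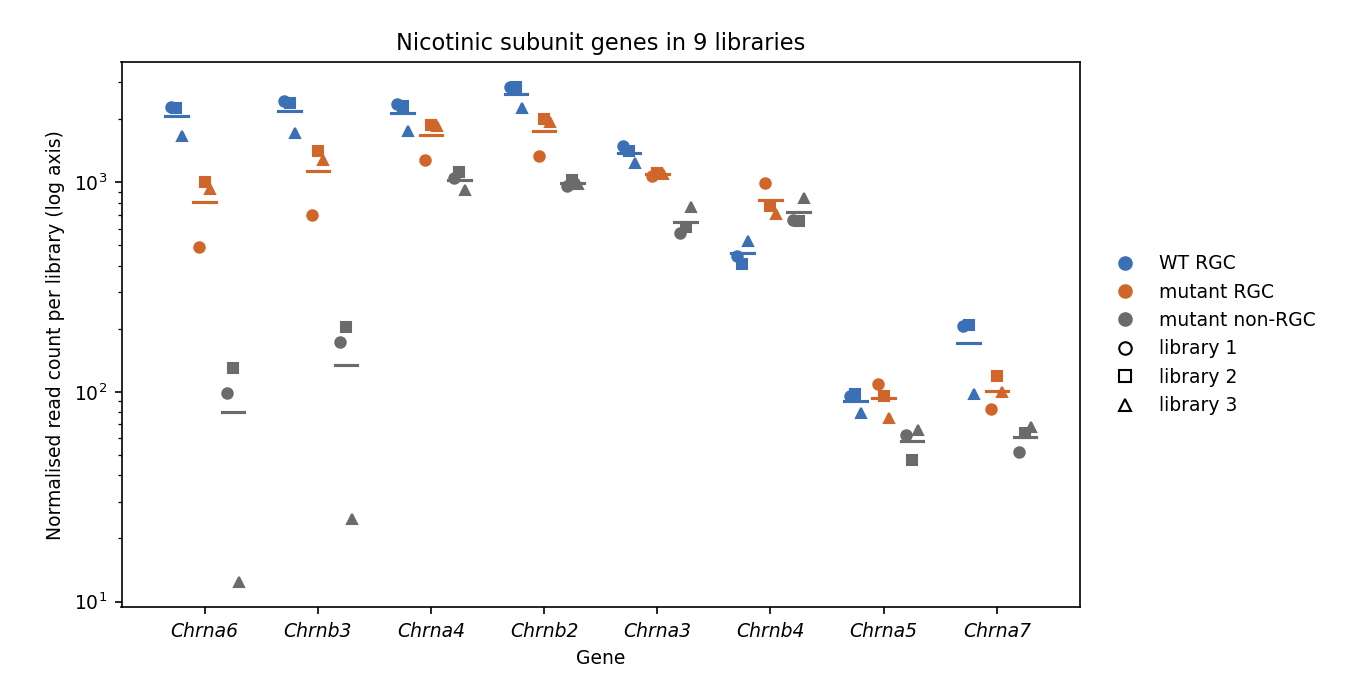
Normalised read count (log axis) of each of the 8 nicotinic subunit genes in each library. Colours mark the group, symbols the library number within a group and bars the mean of 3 libraries. Chrna6 and Chrnb3 span the widest range, from 12.3 and 24.7 in non-RGC library 3 to 2272 and 2441 in WT library 1, and Chrnb4 alone is lowest in all 3 WT libraries.

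Chrna6 encodes the alpha subunit most closely tied to ganglion cells and midbrain dopamine neurons. It had 2272, 2258 and 1666 normalised counts in WT libraries 1 to 3, 491, 1007 and 925 in mutant RGC libraries 1 to 3, and 99.1, 130 and 12.3 in non-RGC libraries 1 to 3. The 3 groups were fully separate, WT library 3 and mutant RGC library 1 were the low libraries of their groups, and non-RGC library 3 held only 12 reads of the gene. Against WT the log2 difference was -1.37 (SE 0.29, limma adjusted p = 0.0275). Leaving out WT library 1, WT library 2, mutant RGC library 2 or mutant RGC library 3 ended the call (limma adjusted p = 0.116, 0.0993, 0.0728 and 0.0670), as did a fit of all 9 libraries (0.159), with log2 differences between -1.58 and -1.03 under the 13 alternatives. Non-RGC cells differed from mutant RGCs by -3.79 (SE 0.82, limma adjusted p = 0.0221), with estimates from -4.40 to -2.75, the last without non-RGC library 3. Leaving out mutant RGC library 2, mutant RGC library 3 or non-RGC library 1 ended that call (0.0799, 0.0756 and 0.0614).

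Chrnb3, the accessory beta gene that lies beside Chrna6 on chromosome 8, followed the same order of libraries. Its values were 2441, 2389 and 1719 in WT libraries 1 to 3, 695, 1412 and 1283 in mutant RGCs, and 172, 204 and 24.7 in non-RGC cells. Again no groups overlapped, and again WT library 3, mutant RGC library 1 and non-RGC library 3 were the lowest of their groups. The difference from WT, -0.96 on the log2 scale (SE 0.29), just missed the threshold (limma adjusted p = 0.0523). It passed with total-count scaling, upper-quartile scaling and voom weights (limma adjusted p = 0.0472, 0.0469 and 0.0492), without WT library 3 (0.0423), and in the authors' deposited table (adjusted p = 0.0161). The other 8 of the 13 alternatives did not pass, among them the fit of 9 libraries (limma adjusted p = 0.279). Without WT library 1 or WT library 2 the limma adjusted p was 0.168 and 0.148. Log2 differences from WT lay between -1.17 and -0.63 under the 13 alternatives. Between the fractions the gene fell by 3.48 on the log2 scale (SE 0.76, limma adjusted p = 0.0229), and leaving out the same 3 libraries as for Chrna6 ended the call (0.0822, 0.0776 and 0.0609). Without non-RGC library 3, which held 24 reads of the gene, the log2 difference was -2.52, and the estimates of the 13 alternatives ranged from -4.02 to -2.52.

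The ratio of Chrna6 to Chrnb3 within a library does not depend on how libraries are scaled. It was 0.931, 0.945 and 0.969 in WT libraries 1 to 3, 0.707, 0.713 and 0.721 in mutant RGC libraries 1 to 3, and 0.575, 0.635 and 0.50 in non-RGC libraries 1 to 3. Within the mutant RGCs the ratio barely varied, although Chrna6 itself ranged there from 491 to 1007 normalised counts. For the log2 scale 1 was added to each normalised count, so log2 ratios depend slightly on scaling where counts are low. On that scale the mean was -0.077 ± 0.029 (SD, n = 3) in WT and -0.49 ± 0.014 in mutant RGCs, a difference of -0.41. An exact two-sided permutation test of 3 against 3 libraries gave p = 0.1, the smallest it can give, and 0.114 after Benjamini-Hochberg adjustment over 8 tests of 4 ratios. Between the fractions the log2 ratio differed by -0.31 (exact permutation p = 0.1, adjusted 0.114), with groups that did not overlap. The 12 and 24 reads behind the ratio in non-RGC library 3 make that value imprecise.

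**Figure D2:**
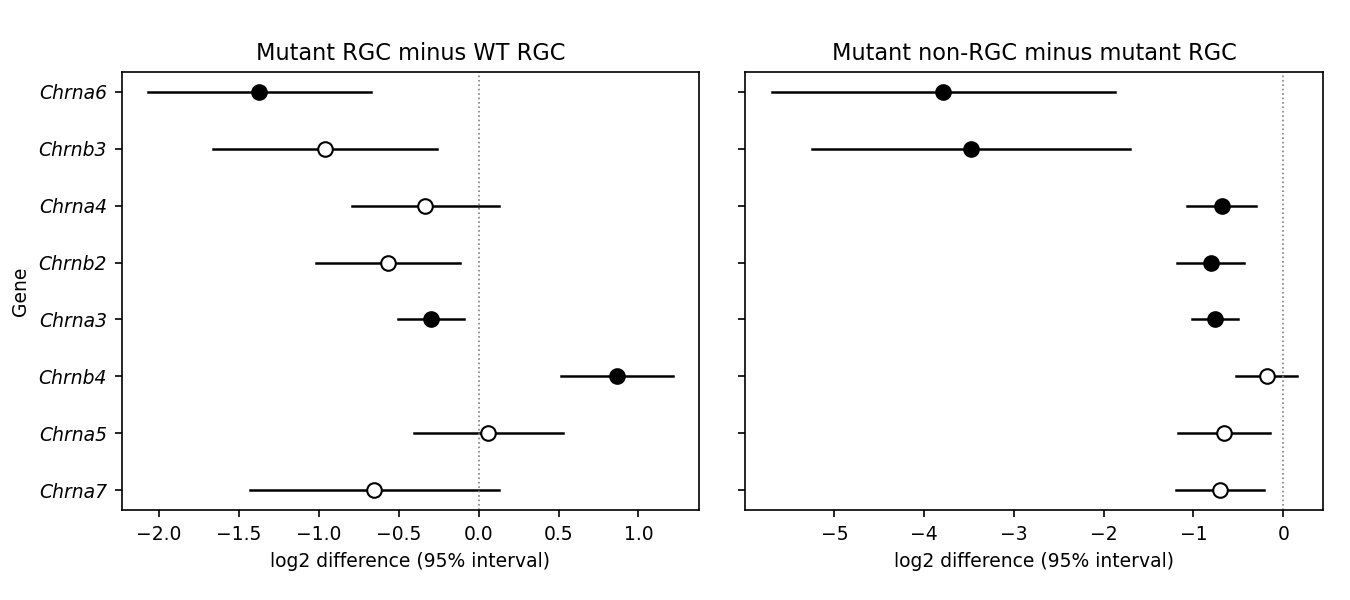
Log2 difference of each subunit gene with its 95% interval from the limma fits, left for mutant RGCs minus WT RGCs and right for mutant non-RGC cells minus mutant RGCs, on horizontal axes of different range. Filled points passed an adjusted p of 0.05, and Chrnb4, at 0.87 on the left and -0.19 on the right, is the member called higher in the mutant.

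Chrnb2 encodes the beta subunit of most heteromeric brain receptors. Its normalised counts were 2846, 2849 and 2249 in WT libraries 1 to 3, 1332, 2006 and 1946 in mutant RGCs, and 964, 1021 and 983 in non-RGC cells. The groups were separate and the non-RGC libraries lay close together. The mutant RGC mean was 0.665 of WT (log2 -0.57, SE 0.19), which did not pass (limma adjusted p = 0.0638) but did without WT library 3 (0.0459), in the fit of 9 libraries (0.0182) and in the authors' deposited table (adjusted p = 0.0452). Between the fractions it fell by 0.81 (SE 0.16, limma adjusted p = 0.0173), which no longer passed after removal of mutant RGC library 2 (0.0645), mutant RGC library 3 (0.0654), non-RGC library 1 (0.0732) or non-RGC library 2 (0.0508).

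Chrna4, the usual alpha partner of Chrnb2 in the brain, had 2362, 2318 and 1751 in WT libraries 1 to 3, 1282, 1869 and 1863 in mutant RGCs, and 1048, 1113 and 918 in non-RGC cells. WT library 3 lay below 2 of the mutant RGC libraries, so those groups overlapped. The difference from WT was -0.33 (95% interval -0.79 to 0.13, limma adjusted p = 0.222). Between the fractions Chrna4 fell by 0.69 (SE 0.16, limma adjusted p = 0.0303), which missed the threshold after removal of mutant RGC library 2 (0.107), mutant RGC library 3 (0.104) or any of non-RGC libraries 1 to 3 (0.0951, 0.0637 and 0.0766).

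Chrna3, Chrna5 and Chrnb4 stand together on chromosome 9, between 54980827 and 55048953 (RefSeq, GRCm38, the assembly also called mm10), and encode subunits that join in the receptors of autonomic ganglia. Chrnb4 was the only member called higher in either comparison. It had 444, 406 and 522 normalised counts in WT libraries 1 to 3, 987, 766 and 704 in mutant RGC libraries 1 to 3, and 659, 656 and 838 in non-RGC libraries 1 to 3. Every mutant library of either fraction was above every WT library, and mutant RGC library 1, the lowest of its group for Chrna6, was the highest for Chrnb4. The rise against WT was 0.87 on the log2 scale (SE 0.15, limma adjusted p = 0.0238), with a difference between 0.74 and 0.97 under the 13 alternatives. The call ended on removal of the same 4 libraries as for Chrna6 (limma adjusted p = 0.107, 0.0911, 0.0728 and 0.0670). Between the fractions Chrnb4 differed by -0.19 (95% interval -0.52 to 0.15, limma adjusted p = 0.427).

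Chrna3 had 1492, 1411 and 1234 in WT libraries 1 to 3, 1072, 1112 and 1090 in mutant RGCs, and 574, 610 and 761 in non-RGC cells. The 3 groups did not overlap and the mutant RGC libraries were nearly equal. It fell against WT by 0.30 on the log2 scale (SE 0.086, limma adjusted p = 0.0462), the smallest change among the called members. Removal of WT library 1 (0.161), WT library 2 (0.142) or any of mutant RGC libraries 1 to 3 (0.0909, 0.0927 and 0.109) ended that call, as did fitting with no filter on low counts (0.0664), and the authors' deposited table did not make it (adjusted p = 0.253). Between the fractions Chrna3 fell by 0.76 (SE 0.11, limma adjusted p = 0.00878) and kept the call under all 13 alternatives, including each of the 6 fits without 1 library.

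Chrna5 had 95.3, 97.9 and 78.9 normalised counts in WT libraries 1 to 3, 109, 95.2 and 75.0 in mutant RGCs, and 62.5, 47.5 and 65.8 in non-RGC cells. The WT range lay inside that of the mutant RGCs (log2 0.061, 95% interval -0.41 to 0.53, limma adjusted p = 0.837). The non-RGC libraries lay below all RGC libraries, but the difference of -0.66 (SE 0.22) did not pass (limma adjusted p = 0.0811). The annotated spans of Chrna3 and Chrna5 share 1304 bases, from 55010117 to 55011420 on chromosome 9. The strand setting of the counting is not known here, so the split of reads from this stretch between the 2 genes is uncertain.

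Promoter windows of 3 members are shown to compare their base content. The RefSeq windows (GRCm38.p6) hold 250 bases before and 50 after a listed start of a gene, and 6 of the 8 members matched, with 7 windows. Chrna6 and Chrnb3 were not among them. Shown are Chrnb4, which rose in the mutant, its neighbour Chrna3 and the beta gene Chrnb2, which both had lower means there. Limma called Chrna3 lower but not Chrnb2, and the authors' deposited table called Chrnb2 lower but not Chrna3. Capitals mark the GC box GGGCGG, on either strand, and the E box form CAGCTG, which reads the same on both strands. All 3 genes lie on the minus strand and the sequences run 5′ to 3′ along the gene, from chr9:55048495-55048794, chr9:55026513-55026812 and chr3:89764583-89764882. The Chrnb4 window lies wholly inside the annotated span of its gene (55028154 to 55048953), whereas those of Chrna3 and Chrnb2 reach beyond the start of theirs.
Chrnb4: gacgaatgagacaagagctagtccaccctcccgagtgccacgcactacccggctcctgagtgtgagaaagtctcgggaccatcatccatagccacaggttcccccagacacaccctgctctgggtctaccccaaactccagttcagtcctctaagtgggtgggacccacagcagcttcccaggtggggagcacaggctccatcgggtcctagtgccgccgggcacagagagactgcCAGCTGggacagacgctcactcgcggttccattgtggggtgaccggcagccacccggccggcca
Chrna3: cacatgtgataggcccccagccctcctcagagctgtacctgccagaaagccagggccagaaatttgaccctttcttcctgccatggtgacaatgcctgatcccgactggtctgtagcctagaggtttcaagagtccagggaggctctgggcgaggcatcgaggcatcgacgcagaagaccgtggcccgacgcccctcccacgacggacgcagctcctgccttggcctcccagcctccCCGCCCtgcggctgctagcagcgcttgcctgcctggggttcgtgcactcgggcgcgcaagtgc
Chrnb2: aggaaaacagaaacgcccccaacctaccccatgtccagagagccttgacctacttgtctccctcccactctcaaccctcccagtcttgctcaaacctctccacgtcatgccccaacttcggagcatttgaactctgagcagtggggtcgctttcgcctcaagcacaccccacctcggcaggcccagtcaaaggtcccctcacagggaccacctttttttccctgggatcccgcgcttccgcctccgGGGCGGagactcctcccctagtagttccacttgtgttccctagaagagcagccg
The Chrnb4 window held 1 CAGCTG and no GC box, and the Chrna3 and Chrnb2 windows each held 1 GC box and no CAGCTG. The general E box CANNTG, which includes CAGCTG, stood 2 times in the Chrnb4 window, 3 times in that of Chrna3 and 2 times in that of Chrnb2. Of all 32851 windows of this length, 35.7% held a GC box, 16.3% CAGCTG and 72.3% CANNTG. The 3 windows held 14, 18 and 12 CpG dinucleotides, against a median of 7 over all windows. Chrna4 and Chrna7 had 33 and 35, more than 91.4% and 93.0% of windows. The Chrna5 windows had 5 and 25, more than 38.0% and 81.6% of windows, with no GC box in the first and 4 in the second. No measurement of chromatin at these windows was analysed here.

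The balance of subunit genes was compared within libraries as ratios of normalised counts, with 1 added to each count for the log2 scale. The ratio of Chrna3 to Chrnb4 was 3.36, 3.47 and 2.37 in WT libraries 1 to 3, 1.09, 1.45 and 1.55 in mutant RGCs, and 0.872, 0.931 and 0.908 in non-RGC cells. On the log2 scale it differed by -1.17 between mutant and WT RGCs and by -0.58 between the mutant fractions, with no overlap of groups in either (exact permutation p = 0.1 for each, the smallest possible, adjusted 0.114). The ratio of Chrnb2 to Chrnb4, the 2 beta genes that can complete a receptor, was 6.41, 7.01 and 4.31 in WT libraries and 1.35, 2.62 and 2.76 in mutant RGCs, a log2 difference of -1.43 (exact permutation p = 0.1, adjusted 0.114). In non-RGC cells it was 1.46, 1.56 and 1.17, which overlapped the mutant RGCs (log2 difference -0.62, exact permutation p = 0.3). The ratio of Chrna3 to Chrna6 was 0.657, 0.625 and 0.741 in WT, 2.18, 1.10 and 1.18 in mutant RGCs, and 5.80, 4.70 and 61.7 in non-RGC cells, with log2 differences of 1.07 and 3.03 (exact permutation p = 0.1 for each, adjusted 0.114). Without non-RGC library 3 the second of these was 1.87.

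**Figure D3:**
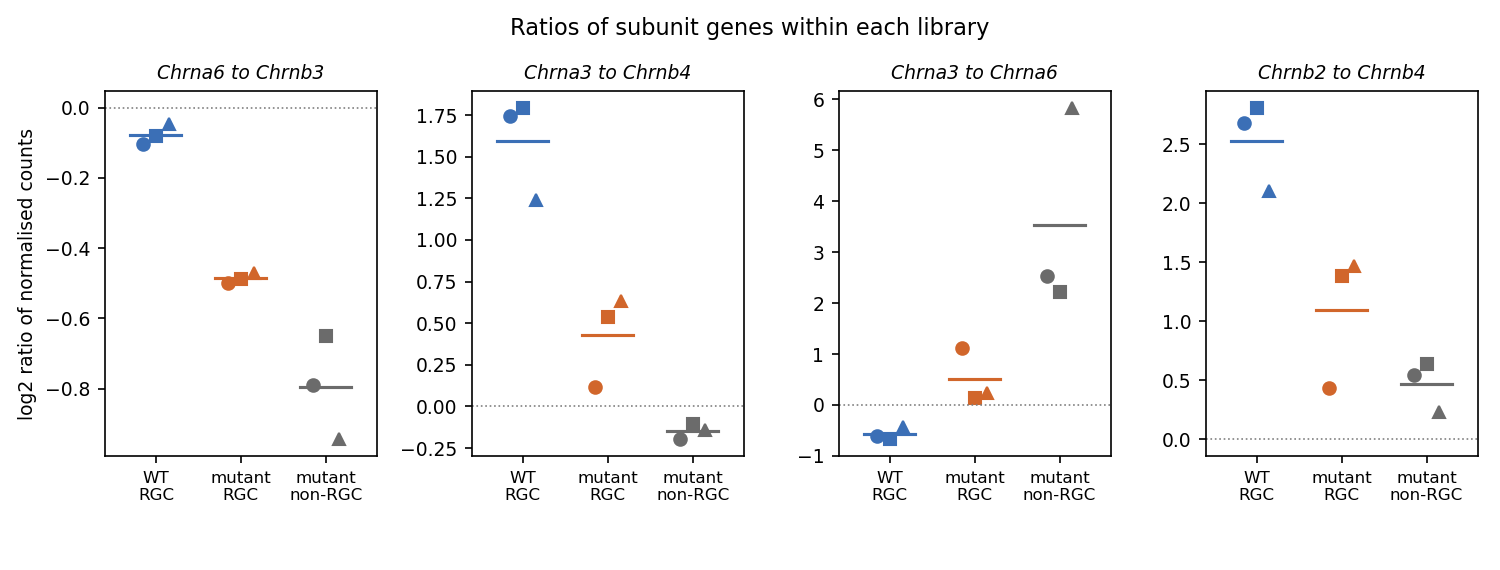
Log2 ratio of normalised counts, each with 1 added, of 2 subunit genes within each library for 4 pairs of genes. Each pair has a separate vertical axis. Circles, squares and triangles are libraries 1, 2 and 3 of a group and bars are group means. The Chrna6 to Chrnb3 ratio lies between -0.50 and -0.47 in the mutant RGC libraries, below the WT libraries.

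Seen as shares of all reads on the 8 genes in a library, Chrnb4 took between 3.40% and 5.60% in WT RGCs, between 8.81% and 16.3% in mutant RGCs and between 17.1% and 22.8% in non-RGC cells. Chrna6 took between 17.9% and 18.9%, between 8.12% and 12% and between 0.336% and 3.38% in the same groups. Chrnb2 kept between 22.0% and 26.8% in all 9 libraries. These shares depend on transcript length, so different genes are not compared. A share also depends on the levels of the other members, so it can rise while the gene's own level does not. The mean normalised count of Chrnb4 was 819 in mutant RGCs and 718 in non-RGC cells, although its share was higher in the latter. That of Chrnb2 was 2648 in WT RGCs and 989 in non-RGC cells, although its share was kept. The 8 genes together had between 8502 and 12371 reads per WT library, between 6540 and 8985 per mutant RGC library and between 3570 and 3970 per non-RGC library.

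Chrna7, whose product forms receptors by itself with high calcium entry, had 205, 208 and 97.5 normalised counts in WT libraries 1 to 3, 83.3, 119 and 100.3 in mutant RGCs, and 51.9, 63.9 and 67.9 in non-RGC cells. WT library 3 lay among the mutant RGC libraries, apart from WT libraries 1 and 2. The difference from WT did not pass (log2 -0.65, 95% interval -1.43 to 0.13, limma adjusted p = 0.166), and without WT library 3 it was -1.01 and passed (0.0139). The lower level in non-RGC cells did not pass either (log2 -0.70, SE 0.21, limma adjusted p = 0.0580), except without mutant RGC library 1 (0.0271).

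The nearest genes on each side of the 2 clusters were read for comparison, at whatever distance they lay. Nearest to the chromosome 9 cluster among genes with a mean of at least 10 were Psma4, 22.8 kb before it, and Ube2q2, 100.4 kb after it. Their log2 differences between mutant and WT RGCs were 0.19 (limma adjusted p = 0.102) and -0.054 (limma adjusted p = 0.587), and neither was called between the fractions. Beside the Chrna6 and Chrnb3 cluster (chromosome 8, 27368711 to 27413944), Eif4ebp1, 93.1 kb before it, differed by 0.47 and Unc5d, 1233 kb after it, by -1.06 against WT, neither called (limma adjusted p = 0.163 and 0.121). Non-RGC cells differed from mutant RGCs by 0.13 for Eif4ebp1 and by -0.82 for Unc5d, again neither called (limma adjusted p = 0.56 and 0.0942).

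Markers of the cell types in the fractions were read next to the subunit genes. Of 20 ganglion cell markers, 10 were lower and none higher in mutant than WT RGCs (median log2 difference -0.79), and 14 were lower and none higher in non-RGC cells than mutant RGCs (median -1.96). Their summed normalised count ranged from 44322 to 52813 in WT RGCs, from 21151 to 34591 in mutant RGCs and from 5816 to 12599 in non-RGC cells, and none was at 0 in any group. By mean log2 level of these markers, WT library 3, mutant RGC library 1 and non-RGC library 3 were the lowest of their groups. The same libraries were lowest for Chrna4, Chrna6 and Chrnb3. WT library 3 was the lowest of its group for every member except Chrnb4. Mutant RGC library 1 was the lowest of its group for every member except Chrna5 and Chrnb4. Among the non-RGC libraries, Chrna3, Chrna7 and Chrnb2 were lowest in library 1, and Chrna5 and Chrnb4 in library 2. Thy1 itself fell by 0.80 against WT (limma adjusted p = 0.0305) and was lower by 3.76 in non-RGC cells (limma adjusted p = 0.0653).

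Many markers of other retinal cells were higher in mutant RGCs than in WT RGCs. In mutant RGCs, 10 of 12 progenitor and dividing cell markers, 6 of 8 amacrine markers and 5 of 8 photoreceptor markers were higher and none lower, with median log2 differences of 0.89, 0.64 and 0.94. Summed progenitor and dividing cell markers ranged from 12376 to 20977 in WT RGCs, from 26423 to 27534 in mutant RGCs and from 31585 to 32873 in non-RGC cells. Summed amacrine markers ranged from 5693 to 6804, from 8987 to 11488 and from 9485 to 12112 in the same groups, and summed photoreceptor markers from 6330 to 9157, from 10035 to 14738 and from 11514 to 14710. Mutant RGC library 1, highest for Chrnb4, had the highest photoreceptor and amacrine sums of the mutant RGCs and the lowest sums of progenitor and dividing cell markers and of starburst amacrine markers. Of 5 starburst amacrine markers analysed, 1 was higher and none lower, and their sum ranged from 1208 to 1384 in WT, from 2039 to 2305 in mutant RGCs and from 1895 to 2210 in non-RGC cells. Most of that sum, and of its difference between genotypes, was Megf10, the marker called higher, with means of 752 in WT and 1521 in mutant RGCs, and the median log2 difference of the list was 0.37. None of these markers was at 0 in any group. The part of cell mixture in the differences of the subunit genes was not tested.

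Markers of cells other than neurons were also read. None of 9 microglia markers was called by limma in mutant against WT RGCs, none had an unadjusted p under 0.05 and the authors' deposited table called none (median log2 difference -0.26), and all 9 were lower in non-RGC cells (median -6.18), where their sum was between 40.4 and 60.0 against between 1704 and 6526 in mutant RGCs and between 2690 and 3915 in WT RGCs. Of 5 endothelial markers 1 was higher in mutant RGCs (sums from 3426 to 4821 in WT, from 5105 to 7025 in mutant RGCs and from 5764 to 6512 in non-RGC cells). These sums were mostly Kdr, the marker called higher, with means of 3594, 5039 and 5565 in the 3 groups. Between the fractions 4 of the 5 endothelial markers had lower values in non-RGC cells (median log2 difference -1.31), none of them called. Mutant RGC library 1 had the highest sums of microglia, endothelial and astrocyte markers among the mutant RGCs. Limma called none of 4 tested astrocyte markers in either comparison, and neither did the authors' deposited table, although 2 had an unadjusted p under 0.05 against WT (sums from 140 to 170 in WT, from 180 to 629 in mutant RGCs and from 182 to 670 in non-RGC cells).

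**Figure D4:**
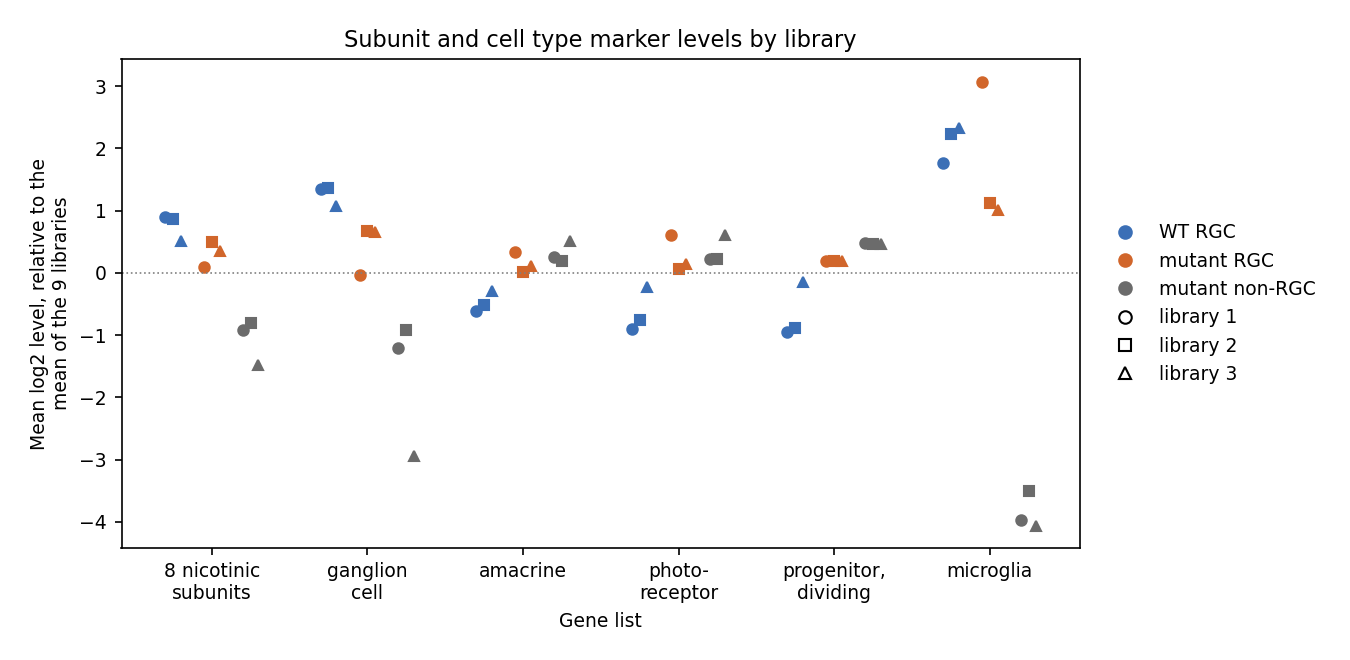
Mean log2(normalised count + 1) of the 8 subunit genes and of 5 marker lists in each library, relative to the mean of the 9 libraries. Colours mark groups and symbols library numbers. Ganglion cell markers are lowest in non-RGC library 3 (-2.94), and the progenitor and dividing cell list puts WT library 3 (-0.15) between the other WT libraries (-0.95 and -0.88) and the mutant RGCs.

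The other cholinergic genes were described as whole lists. Among 8 other nicotinic subunit genes, mostly those of muscle and hair cells, only Chrna1 and Chrnb1 reached a mean normalised count of 10 against WT and only Chrnb1 between the fractions, and neither passed, even at an unadjusted p under 0.05 or in the authors' deposited table. Of 8 genes of acetylcholine synthesis, transport and breakdown analysed, 7 were tested. Ache, which encodes acetylcholinesterase, fell from 1677 ± 390 in WT RGCs to 806 ± 215 in mutant RGCs (SD, n = 3 each, log2 difference -1.03 with SE 0.26, limma adjusted p = 0.0361) and to 273 ± 45.2 in non-RGC cells (log2 -1.54, SE 0.23, limma adjusted p = 0.00923). Bche, which encodes the related butyrylcholinesterase, rose against WT from 23.9 ± 6.99 to 65.6 ± 7.19 (log2 1.49, limma adjusted p = 0.0246), and so did the choline transporter gene Slc44a1 (log2 0.70, limma adjusted p = 0.0331). Chat, which encodes the enzyme that makes acetylcholine, had 30.7 ± 7.43, 39.2 ± 10.1 and 59.2 ± 10.5 in WT RGCs, mutant RGCs and non-RGC cells, and the high-affinity choline transporter gene Slc5a7 had 65.4 ± 19.7, 60.1 ± 17.1 and 32.6 ± 18.5. Neither was called in either comparison. Slc18a3 was not analysed here.

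Nicotinic receptor chaperones and prototoxins, small proteins that bind the receptors, showed 5 lower and none higher of 10 tested in mutant RGCs (median log2 difference -0.64), and 5 lower and none higher between the fractions (median -0.53). Lower against WT were Tmem35, the chaperone also called NACHO (log2 -0.36), the prototoxin genes Lynx1 (-1.19), Ly6h (-0.93) and Lypd1 (-1.41), and Nrg1 (-1.45), which encodes neuregulin, a growth factor that regulates receptor genes. In non-RGC cells Lynx1 (-0.56), Ly6h (-0.98), Ly6e (-0.51), Lypd1 (-1.18) and Nrg1 (-2.21) were lower. Ric3, a chaperone of Chrna7 receptors, was not called in either comparison (log2 -0.26 and -0.32). Of 5 muscarinic receptor genes, 3 were tested, and limma called none against WT, where 1 had an unadjusted p under 0.05 and the authors' deposited table called 1 lower. Chrm3 was lower in non-RGC cells (log2 -1.36, limma adjusted p = 0.0221).

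Likeness over the 9 libraries was measured as the root mean square difference between log2 levels, each gene centred on its own mean, for the 3 members with the highest means against 11930 genes. The 9 libraries share their groups, so this is a description. Closest to Chrnb2 were Scrt1, Mgat3 and Lmbr1 (0.043, 0.050 and 0.050, where the median gene was at 0.65). Bcr, Tmem8b and Hcn4 were closest to Chrna4 (0.056, 0.060 and 0.068, median 0.54). For Chrnb3 they were Cpne4, Nrn1 and Palm2 (0.18, 0.19 and 0.19, median 2.12). Among the members, Chrna4 and Chrnb2 were the closest pair (0.16), Chrna6 and Chrnb3 were each other's nearest (0.30), and Chrna6 and Chrnb4 were the furthest apart (2.62).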

How the data were processed

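Libraries of poly(A) RNA were sequenced from 1 end for 75 cycles. The submitters' processing notes name STAR 2.3, featureCounts, DESeq and FastQC and build mm10. File names show that primary alignments without duplicates were counted. The 2 deposited tables give, per the file headers, the authors' mean normalised count per condition (counts divided by size factors), its fold change as a ratio, the log2 fold change, and p-values. Conditions A and B were identified from genes at 0 in both tables (14765 shared, 0 mismatches for the mutant RGCs).

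Whole read counts of each library were recovered here from the deposited means, which are sums of 3 whole counts times known steps. This succeeded for between 99.975% and 100.0% of genes above 0, and the mutant RGC counts from both tables were identical for 23953 of 23953 genes. The planned test for values per library followed: limma 3.58.1 (R 4.3.3) with a variance trend on log2(normalised count + 1), for genes with a mean of at least 10, with Benjamini-Hochberg adjustment over all of them and a threshold of 0.05. Scripts were tested on simulated data. Per-library levels use median-of-ratios factors over 9 libraries, and fold changes of low genes are understated on the log2 scale. Duplicate removal caps counts of abundant short transcripts.

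The naming rule took all 8 members, called genes of the cholinergic lists with Chat, Slc18a3, Slc5a7 and Ache, the 3 genes nearest in pattern to each of the 3 members with the highest means, and the nearest neighbours with a mean of at least 10. Values of Thy1, Ric3, Ezh2, Ehmt2, Megf10 and Kdr are given outside it, and Chrna1 and Chrnb1 are named outside it. Members and lists were chosen with earlier results of these data known.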

Additional observations from a re-analysis of the deposited data

How the results depend on the processing

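With all libraries, limma called 3 of the 8 subunit genes between genotypes and 5 between fractions. Without 1 library, the first count ranged from 0 to 6 and the second from 1 to 6, and the counts over all genes ranged from 3 to 6478 and from 438 to 3325, against 3971 and 2590 with all libraries. The authors' deposited table called 1635 genes between the fractions. Between genotypes none of the 8 passed without WT library 1 or 2 or mutant RGC library 2 or 3. Chrna5, not called, turned from 0.061 to -0.032 without WT library 3 and to -0.044 without mutant RGC library 1, in a range up to 0.20 without 1 library, and no other direction turned under the pseudocount of 0.5, no filter, total-count or upper-quartile scaling, voom weights, the fit of 9 libraries, the authors' deposited values or leaving out each library. Scaling moved the split of all calls between genotypes from 2092 higher and 1879 lower to 2397 and 1903 (total count) or 1980 and 2293 (upper quartile), and between fractions from 770 and 1820 to 1465 and 1601 or 1030 and 1747, while the members called higher or lower kept their direction. The 9-library fit gave 2390 higher and 2808 lower between genotypes and 449 and 1851 between fractions, and the authors' deposited table gave 1381 and 1643 between genotypes and 295 and 1340 between fractions. All 4 ratios kept their direction in both comparisons under the pseudocount of 0.5 and without each library. No paired analysis was possible because the recovered libraries do not carry the replicate numbers of the labels. The cause of these dependences was not tested. With 3 libraries a group, exact tests of ratios cannot go below p = 0.1.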
